A study of Homo sapiens with 96 samples.

Results

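The 10 genes described here, CDKN1A, CDKN1B, CDKN1C, CDKN2A, CDKN2B, CDKN2C, CDKN2D, BTG1, BTG2 and RB1, encode proteins that hold back the cell cycle. They were taken from the count table by gene symbol, 10 of its 60552 rows, and all 10 were found. The table covers 96 RNA-seq libraries from THP1, OCIAML3, MV411, MOLM13, Kasumi1 and HL60, 6 established human cell lines of acute myeloid leukaemia. Each line was grown for 2 or 4 days under 4 treatments, with 2 libraries in each of the 48 combinations. The treatments were 1 µM GSK2879552 (labelled 552A, a reading of the label by exclusion), 100 nM all-trans retinoic acid (ATRA), both drugs at these doses (Combo) and the 0.1% DMSO vehicle (DMSO). GSK2879552 inhibits the histone demethylase LSD1, encoded by KDM1A, and ATRA activates the retinoic acid receptors. The comparisons ask how each drug alone, and the pair of drugs, changed these genes relative to the vehicle, and whether the lines responded alike.

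Passage from G1 into S phase is driven by cyclin-dependent kinases, which phosphorylate the retinoblastoma protein RB1 and so release E2F transcription factors. The CIP/KIP proteins p21 (CDKN1A), p27 (CDKN1B) and p57 (CDKN1C) bind cyclin and kinase complexes of several kinds. The INK4 proteins p16 (CDKN2A), p15 (CDKN2B), p18 (CDKN2C) and p19 (CDKN2D) bind the cyclin D kinases CDK4 and CDK6, and CDKN2A also encodes ARF, which restrains the MDM2 ligase and so protects p53. BTG1 and BTG2 are antiproliferative proteins that bind the CCR4-NOT deadenylase and PRMT1. In the myeloid lineage, cells leave the cycle as they mature, and retinoic acid is used to bring about that maturation in promyelocytic leukaemia.

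Library depth, in units of 1000000 counts, was 12.82 to 40.95, with a median of 22.88. The labels do not say whether the 2 libraries of a group came from separate cultures. A p-value within a line, or for a difference between lines, therefore reflects the spread between libraries of a group alone. It may cover technical variation only. The replicate libraries of every group differed by more than sampling noise, with chi-square per degree of freedom of at least 9.90. RUNX1T1, part of the Kasumi1 fusion gene, lay at group means of 117 to 155 CPM in Kasumi1 and at most 0.493 CPM in the other lines. CPM are counts per 1000000 of the library total, after scaling between libraries. The myeloid genes SPI1 and PTPRC were above 0 in every group. Of the markers of other lineages, EPCAM (epithelium) reached 131 CPM in Kasumi1, CD79A (B cells) 64.8 CPM in HL60 and CD3D (T cells) 25.9 CPM in MOLM13, and their part in the results was not tested. Across lines, CYP26A1, a direct retinoic acid target, rose with ATRA by 9.02 and with Combo by 9.42 on the log2 scale at day 4. Its highest group mean was only 0.317 CPM in Kasumi1, beside 14.4 CPM (MOLM13) to 105 CPM (OCIAML3) in the other lines. KDM1A itself had a log2 fold change of -0.06 with 552A across lines (edgeR adjusted p = 0.981). In libraries of whole cultures, fewer cells of a type and less RNA per cell cannot be told apart. Libraries also differed in how counts moved with the GC content of the gene: the mean slope at day 4, in log2 CPM per 10 percentage points of GC, was 0.0427 in 552A, -0.0301 in ATRA, -0.16 in Combo and 0.14 in DMSO libraries. RB1 and BTG1 are the most GC-poor of the 10 genes, so their values are also given after correction for GC content and length.

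Under the vehicle at day 4, the 10 genes spanned a wide range per length of transcript. The median over lines in CPM per kilobase was 29.9 for CDKN2C, 29.7 for CDKN1B, 14.2 for RB1, 10.8 for CDKN1A, 7.87 for BTG2, 7.80 for BTG1, 4.19 for CDKN2D, 1.57 for CDKN2A, 0.467 for CDKN2B and 0.0391 for CDKN1C. Of the 15 pairs of lines, the DMSO level differed (edgeR adjusted p below 0.05) in 14 for CDKN2C, 13 each for CDKN1A, CDKN1B, CDKN2A and CDKN2B, 12 for BTG1, 10 each for CDKN2D and RB1, 5 for BTG2 and 2 for CDKN1C, with 39.8% of all gene and line-pair contrasts called. BTG2 averaged 0.597 ± 0.0657 CPM in Kasumi1, below THP1, the line next above it, at 19.6 ± 1.97 CPM (SD, n = 2 each; adjusted p = 2.27e-14). The other lines lay between THP1 and OCIAML3 (28.2 ± 0.628 CPM), and neighbours in that order did not differ beyond their spread (adjusted p from 0.469 to 1).

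CDKN2A and CDKN2B lie side by side on chromosome 9 (GRCh38: CDKN2A from 21967753 to 21995301, CDKN2B from 22002903 to 22009363, both on the minus strand), and in 2 of the 6 lines neither had more than 1 count in total. In THP1 both genes had 0 counts in all 16 libraries, which allows up to 0.00776 CPM (3 counts over the 16 libraries, counting error only). In MOLM13 each had 1 count in total. The neighbouring genes told these lines apart: MTAP, an enzyme of methionine salvage beside CDKN2A, had group means of 45.5 to 57.5 CPM in MOLM13, and 9 counts in all 16 libraries of THP1. The antisense transcript CDKN2B-AS1, which runs across CDKN2B, had 482 counts in MOLM13 and 0 in THP1. The strand setting of the counting step is not given in the sources used here, and reads of overlapping genes on opposite strands may not be separated, here or for RB1 and BTG1. With CDKN2A and CDKN2B untestable in MOLM13 and THP1, treatment results for these 2 genes rest on 4 lines.

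**Figure D1:**
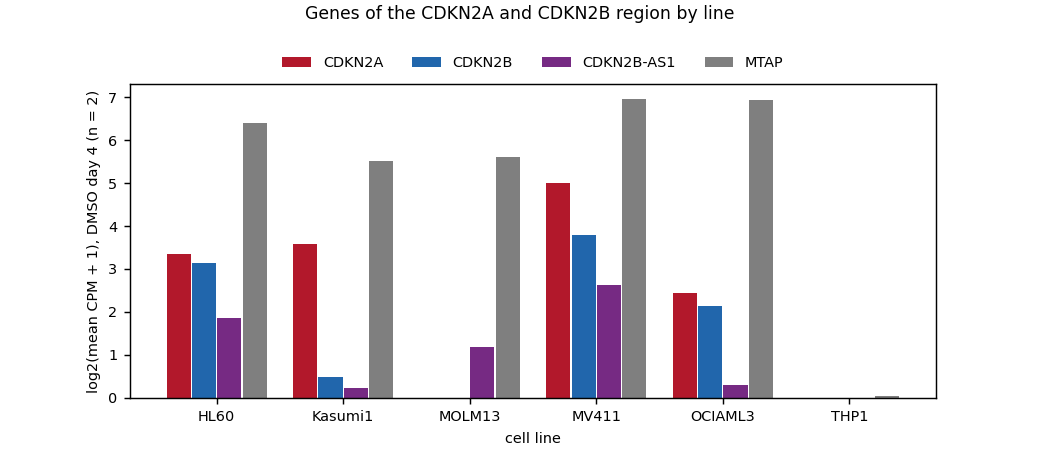
Level of CDKN2A, CDKN2B and 2 neighbouring genes in each line under DMSO at day 4, as log2 of the mean CPM of 2 libraries plus 1. CDKN2A and CDKN2B are at 0 in MOLM13 and THP1; MTAP is at 47.7 CPM in MOLM13 and 0.029 CPM in THP1.

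Taken over all 6 lines, with the lines as replicates, Combo raised BTG2 and RB1 at day 4, and no member was called lower. That is 2 of the 10 members called, where 23.3% of all genes tested were called. ATRA raised BTG2 (1 of 10, against 7.15% of all genes), and 552A gave no call among the members (0 of 10, against 0.393%, with RB1 and CDKN2A the members with an unadjusted p below 0.05). The median log2 fold change of the members was 0.04 for 552A, 0.16 for ATRA and 0.28 for Combo, beside 0.01, -0.01 and 0.04 over all genes. At day 2, 552A raised RB1 (1 member, against 1.96% of genes), ATRA raised RB1 and BTG2 (2 members, against 9.37%), and Combo raised RB1, BTG1 and BTG2 and lowered CDKN2A (4 members, against 27.2%). With 10 members, these counts lie close to what the shares over all genes give.

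Within single lines the picture was more varied, and the same gene moved in opposite directions in different lines. A member could be tested in a line 51 times (9 members in HL60, Kasumi1, MV411 and OCIAML3, 8 in THP1, 7 in MOLM13). At day 4, 4 of the 51 were called with 552A (3.71% of all gene and line pairs), 17 with ATRA (15.7%) and 23 with Combo (22%). At day 2 the counts were 3 for 552A (2.8%), 14 for ATRA (11.3%) and 16 for Combo (18.7%). The ATRA calls at day 4 were spread unevenly, with 6 in MV411, 4 in HL60, 3 each in OCIAML3 and THP1, 1 in MOLM13 and 0 in Kasumi1. The shares of all genes called also differed, at 25.8% in MV411, 30.8% in HL60 and 14.5% in OCIAML3. They were 14.2% in THP1, 8.41% in MOLM13 and 0.106% in Kasumi1. Tests of whether the effect itself differed between lines were called for 3 members with 552A (CDKN1B, BTG1 and BTG2; 5.69% of all genes), 6 with ATRA (CDKN1A, CDKN2A, CDKN2C, CDKN2D, BTG1 and BTG2; 31.4%) and 8 with Combo (33.6%). With Combo the 2 members without such a call were RB1 (adjusted p = 0.397) and CDKN1C.

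**Figure D2:**
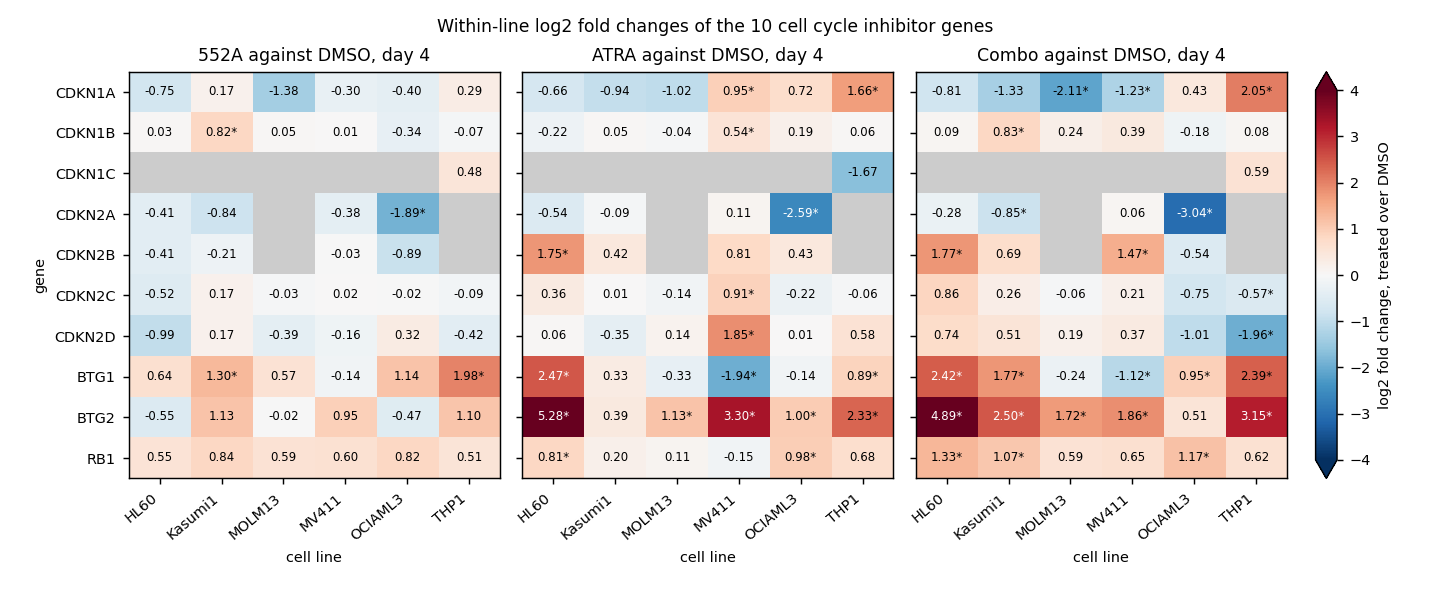
Log2 fold change over DMSO at day 4 for each member (rows) in each line (columns) under 552A, ATRA and Combo; asterisks mark edgeR adjusted p below 0.05, grey marks genes not tested in that line, and the colours end at 4 log2 units in each direction. BTG2 is positive in all 6 lines with ATRA and with Combo, whereas CDKN1A and BTG1 carry asterisks of both signs.

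CDKN1A encodes p21, the inhibitor best known as a p53 target (ENSG00000124762.13; chromosome 6, 36676460 to 36687339, plus strand). It moved in opposite directions under Combo: it rose in THP1 and fell in MOLM13 and MV411. In THP1 at day 4 it was at 82 and 63.6 CPM in Combo libraries and 61.0 and 50.9 CPM in ATRA libraries, against 17.1 and 16.3 CPM in DMSO libraries. The treated and vehicle libraries did not overlap, and the log2 fold changes were 2.05 ± 0.25 for Combo (SE; adjusted p = 5.24e-05) and 1.66 ± 0.25 for ATRA (adjusted p = 0.000731). In MOLM13 it was at 41.6 and 38.1 CPM in Combo libraries, against 159.7 and 178 CPM in DMSO libraries, a log2 fold change of -2.11 ± 0.34 (adjusted p = 0.000905). MOLM13 had the highest vehicle level of the 6 lines and Kasumi1 the lowest, at 1.12 ± 0.0263 CPM (SD, n = 2).

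In MV411 at day 4 ATRA alone and Combo moved CDKN1A in opposite directions, while 552A alone was not called. It was at 31.6 and 16.3 CPM in Combo libraries and 97.8 and 120.5 CPM in ATRA libraries, against 62.3 and 53.7 CPM in DMSO libraries. The Combo libraries lay below, and the ATRA libraries above, both vehicle libraries. The log2 fold change was -1.23 ± 0.28 for Combo (adjusted p = 0.00572) and 0.95 ± 0.28 for ATRA (adjusted p = 0.0230), and Combo differed from ATRA by -2.19 ± 0.29 (adjusted p = 0.000297). The ATRA call was lost after GC correction (0.38, adjusted p = 0.0515) and without ATRA replicate 2 (adjusted p = 0.143) or DMSO replicate 2 (0.132), and the Combo call without DMSO replicate 1 (-0.98, adjusted p = 0.0634). At day 2 the same line had a Combo log2 fold change of -1.46 ± 0.28 (adjusted p = 0.00367; 0.0511 without Combo replicate 2), and ATRA was not called there. In THP1 it had risen by day 2 with Combo (2.13 ± 0.25, adjusted p = 5.79e-05) and ATRA (1.20 ± 0.25, adjusted p = 0.00691; 0.0644 without DMSO replicate 2). In HL60, Kasumi1 and OCIAML3 CDKN1A was not called against DMSO on either day. The difference between lines in the Combo effect had an adjusted p of 1.48e-07.

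CDKN1B encodes p27 (ENSG00000111276.10; chromosome 12, 12715058 to 12722371, plus strand), whose protein is controlled mainly by its turnover. Its transcript rose with the LSD1 inhibitor in Kasumi1 at day 4. At day 2 it was called higher with 552A in 1 of 6 lines, and the Combo value was not called in Kasumi1. In Kasumi1 at day 4 it was at 96.5 and 105 CPM in 552A libraries and 96.2 and 109 CPM in Combo libraries, but 58.5 and 56.5 CPM in ATRA libraries, against 52.1 and 60.2 CPM in DMSO libraries. Every library given the LSD1 inhibitor lay above every library without it. The log2 fold changes were 0.82 ± 0.14 for 552A (adjusted p = 0.00359) and 0.83 ± 0.14 for Combo (adjusted p = 0.00248), and Combo exceeded ATRA by 0.78 ± 0.14 (adjusted p = 0.00470). Without DMSO replicate 1 the adjusted p was 0.0820 for 552A and 0.0611 for Combo, and without ATRA replicate 2 it was 0.0599 for Combo against ATRA. In HL60 it was called at day 2 with ATRA (0.49) and Combo (0.48), but not after leaving out any 1 of the 4 libraries compared (adjusted p 0.0575 to 0.276). In MV411 CDKN1B rose with ATRA by 0.54 ± 0.17 (adjusted p = 0.0325; 0.131 without ATRA replicate 2). Across lines its day-4 log2 fold change was 0.12 with 552A, 0.11 with ATRA and 0.26 with Combo, and none was called.

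CDKN1C encodes p57 (ENSG00000129757.12; chromosome 11, 2883213 to 2885773, minus strand), an imprinted gene. It was close to undetected, with 317 counts over the 96 libraries and 0 in 42 of them. THP1 held 191 of these counts and HL60 none. THP1 was the only line in which it could be tested, and it was not called there or across lines in any comparison.

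**Figure D3:**
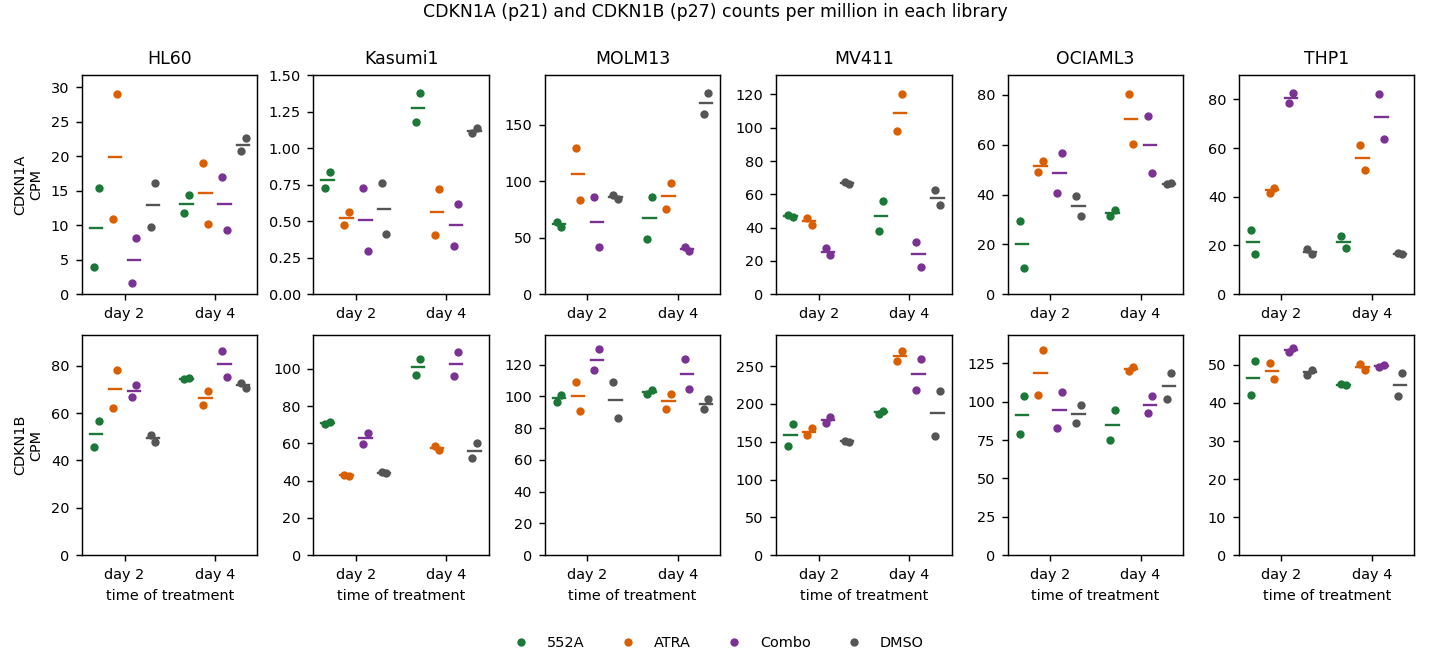
CPM of CDKN1A and CDKN1B in each library (points, with the mean of 2 libraries as a bar) by line, day and treatment; the vertical axes differ between panels. At day 4 CDKN1A in Combo libraries lies above DMSO in THP1 and below it in MOLM13 and MV411, and CDKN1B in Kasumi1 is high in 552A and Combo libraries.

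CDKN2A (ENSG00000147889.16) encodes p16 and ARF. Its largest response was a fall in OCIAML3 that every treatment shared. At day 4 it was at 1.302 and 1.048 CPM in 552A libraries, 0.733 and 0.695 CPM in ATRA libraries and 0.741 and 0.341 CPM in Combo libraries, against 4.25 and 4.69 CPM in DMSO libraries. No treated library overlapped a vehicle library. The log2 fold changes were -1.89 ± 0.37 with 552A (adjusted p = 0.0169), -2.59 ± 0.39 with ATRA (adjusted p = 0.00114) and -3.04 ± 0.40 with Combo (adjusted p = 0.000430), so the Combo level was lower by 8.22-fold. The 552A call was lost without any 1 of its 4 libraries (adjusted p 0.0791 to 0.228), whereas the ATRA and Combo calls were kept. At day 2 ATRA and Combo had also lowered it in this line, by log2 fold changes of -1.69 and -2.12, the ATRA call being lost without ATRA replicate 1 (-1.20, adjusted p = 0.168) or either DMSO library (0.0776 and 0.0606). In MV411, where the vehicle level was highest at 31.3 ± 2.97 CPM (SD, n = 2), no treatment was called on either day. In HL60 the day-2 Combo call (-0.91 ± 0.28, adjusted p = 0.0230) was lost after GC correction (-0.58, adjusted p = 0.188), without the filter on low counts (0.0635), and without Combo replicate 1 (-0.56, adjusted p = 0.192) or either DMSO library (0.0828 and 0.0670). In Kasumi1 the day-4 Combo value of -0.85 ± 0.24 (adjusted p = 0.0444) was -0.22 after GC correction (adjusted p = 0.638), and it was not called without Combo replicate 1 (-0.54) or either DMSO library (-0.92 and -0.75). Across lines, the day-2 Combo value of -0.90 ± 0.30 (adjusted p = 0.0347) was -0.50 after GC correction (adjusted p = 0.259) and -0.46 without OCIAML3 (adjusted p = 0.229), and it also lost its call without HL60 (-0.87, adjusted p = 0.0951). At day 4 the Combo value across lines was -1.01 ± 0.43 and was not called (adjusted p = 0.103; lower in 3 of 4 lines).

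CDKN2B (ENSG00000147883.10) encodes p15, a gene known to respond to TGF-beta and often silenced in myeloid leukaemia. At day 4 it rose with ATRA and with Combo in HL60, and with Combo in MV411. In HL60 at day 4 it was at 27.8 and 28.4 CPM in ATRA libraries and 28.8 and 27.4 CPM in Combo libraries, while 552A libraries had 5.11 and 6.72 CPM, against 8.59 and 6.94 CPM in DMSO libraries. The 4 libraries with ATRA lay above all others, with no overlap. The log2 fold change was 1.75 ± 0.22 for ATRA (adjusted p = 9.97e-05) and 1.77 ± 0.22 for Combo (adjusted p = 8.49e-05). In MV411 it was at 34.0 and 35.0 CPM in Combo libraries and 26.8 and 16.5 CPM in ATRA libraries, against 10.7 and 14.95 CPM in DMSO libraries. Combo was called there, at 1.47 ± 0.29 (adjusted p = 0.00252), and ATRA and 552A were not. At day 2 ATRA had raised CDKN2B in HL60 (1.38 ± 0.22, adjusted p = 0.000662), while Combo was not called there (0.28 ± 0.22, adjusted p = 0.343). The day-2 MV411 Combo call (1.005 ± 0.29, adjusted p = 0.0329) was lost without any 1 of its 4 libraries (adjusted p 0.0564 to 0.184). In OCIAML3 the Combo value was -0.54 and was not called.

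In the fit of all 6 lines, 4 of which express CDKN2B, its day-4 log2 fold change was -0.41 with 552A. It was 0.84 with ATRA (adjusted p = 0.150) and 0.94 with Combo (adjusted p = 0.0654), and none of these was called. The Combo value was called without OCIAML3 (1.39, adjusted p = 0.0208). Combo exceeded 552A by 1.35 ± 0.35 (adjusted p = 0.0351), higher in 4 of 4 lines. That call was lost after GC correction (1.298, adjusted p = 0.0541) and without 5 libraries listed for low GC slopes (1.15, adjusted p = 0.111). It was also lost without HL60 (1.06, adjusted p = 0.122), Kasumi1 (0.0657) or MV411 (0.129). Leaving out MOLM13 (0.0562) or THP1 (0.0620) ended the call too. CDKN2B had 1 count in MOLM13 and 0 in THP1, so these lines hold no usable value of its change.

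CDKN2C (ENSG00000123080.10; chromosome 1, 50960745 to 50974633, plus strand) encodes p18, and was the most abundant member per length. It varied more between lines than with treatment, with 319 ± 12.6 CPM in THP1, 124 ± 2.27 in MOLM13, 122 ± 8.69 in Kasumi1, 76.5 ± 6.64 in OCIAML3, 35.3 ± 1.18 in HL60 and 24.2 ± 2.08 in MV411 under DMSO at day 4 (SD, n = 2 each). MOLM13 and Kasumi1 did not differ (adjusted p = 0.860), and every other neighbouring pair did. In THP1 it was at 254 and 195 CPM in Combo libraries, against 327 and 309.6 CPM in DMSO libraries, a log2 fold change of -0.57 ± 0.17 (adjusted p = 0.02001). In MV411 it was at 43.0 and 45.6 CPM in ATRA libraries, against 25.7 and 22.7 CPM in DMSO libraries, a log2 fold change of 0.91 ± 0.20 (adjusted p = 0.00543). Neither call held after GC correction (-0.22 in THP1, adjusted p = 0.344, and 0.34 in MV411, adjusted p = 0.199), and the THP1 call was lost without Combo replicate 2 (-0.37), DMSO replicate 1 (-0.51) or DMSO replicate 2 (-0.58, adjusted p = 0.0752).

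CDKN2D (ENSG00000129355.6; chromosome 19, 10566462 to 10569059, minus strand) encodes p19. At day 4 it rose with ATRA in MV411 and fell with Combo in THP1, and no treatment had calls of both signs against DMSO on that day. The 2 Combo calls at day 2 were rises. In MV411 it was at 51.7 and 51.6 CPM in ATRA libraries, against 17.9 and 11.6 CPM in DMSO libraries, a log2 fold change of 1.85 ± 0.36 (adjusted p = 0.00220). In THP1 it was at 1.35 and 0.854 CPM in Combo libraries, against 4.86 and 3.48 CPM in DMSO libraries, a log2 fold change of -1.96 ± 0.44 (adjusted p = 0.00437). Neither pair of groups overlapped, and both calls were kept without any 1 library. ATRA in THP1 (0.58) and Combo in MV411 (0.37) were not called. In HL60 the Combo libraries, at 52.0 and 28.6 CPM, lay above the DMSO libraries, at 21.5 and 23.9 CPM, but the difference was not called at day 4. At day 2 it was called, with 28.2 and 69.6 CPM in Combo libraries, against 14.3 and 13.8 CPM in DMSO libraries, a log2 fold change of 1.79 ± 0.51 (adjusted p = 0.0142); the call was lost without Combo replicate 2 (0.97, adjusted p = 0.145) or either DMSO library (0.0804 and 0.0788). In Kasumi1 the day-2 Combo call (1.65 ± 0.39, adjusted p = 0.0368) was lost without any 1 of its 4 libraries (adjusted p 0.115 to 0.300).

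**Figure D4:**
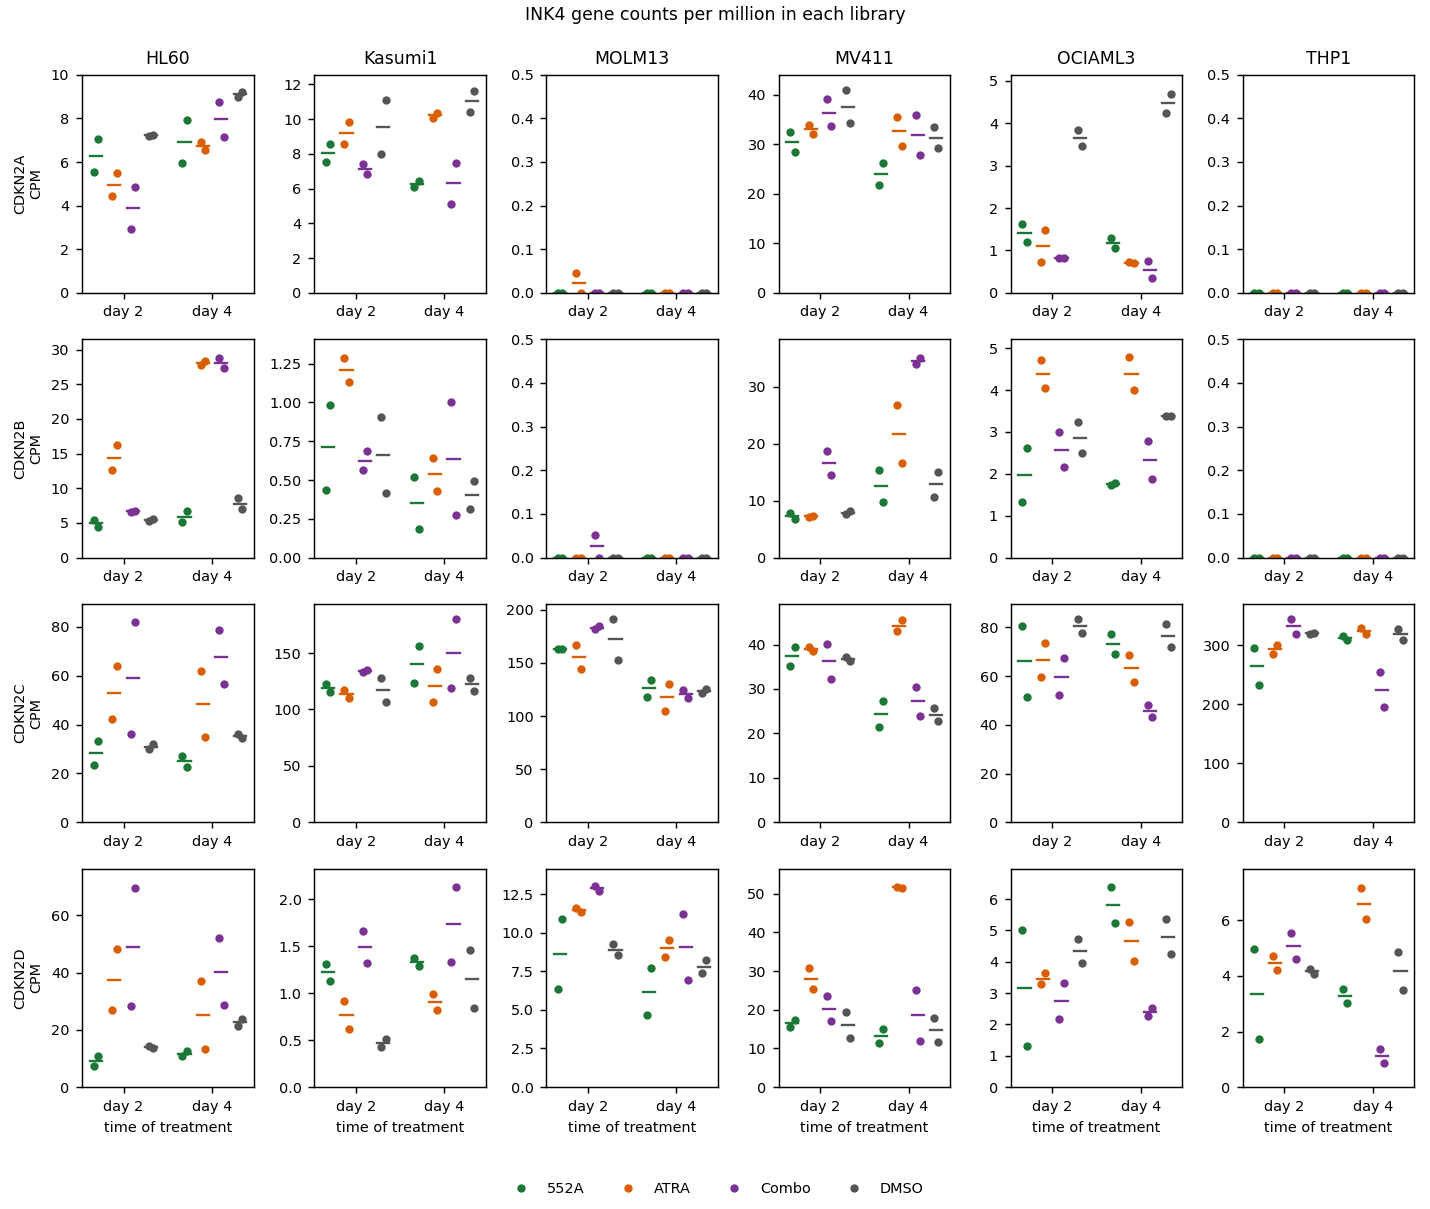
CPM of CDKN2A, CDKN2B, CDKN2C and CDKN2D in each library (points, with the mean of 2 libraries as a bar) by line, day and treatment; the vertical axes differ between panels. CDKN2A is low in all treated OCIAML3 libraries, CDKN2B is high in ATRA and Combo libraries of HL60 at day 4, and CDKN2A and CDKN2B are at or near 0 in MOLM13 and THP1.

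RB1 (ENSG00000139687.13; chromosome 13, 48303726 to 48599436, plus strand) encodes the retinoblastoma protein, the substrate on which the kinase inhibitors converge. Its transcript rose across lines with Combo on both days, by less than BTG2. In HL60 at day 4 it was at 182 and 231 CPM in Combo libraries, 115 and 177 CPM in ATRA libraries and 123 and 107 CPM in 552A libraries, against 74.9 and 79.7 CPM in DMSO libraries. In OCIAML3 it was at 114 and 129 CPM in Combo libraries, 97.4 and 108 CPM in ATRA libraries and 80.6 and 103 CPM in 552A libraries, against 49.5 and 57.9 CPM in DMSO libraries. In both lines every treated library lay above both vehicle libraries. In MV411 the Combo libraries, at 200.3 and 321 CPM, overlapped the DMSO libraries, at 133 and 209 CPM.

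Across the 6 lines the Combo log2 fold change of RB1 at day 4 was 0.93 ± 0.15 (adjusted p = 0.000666), a 1.90-fold increase, higher in 6 of 6 lines. It was 0.68 after GC correction (adjusted p = 0.000946) and 0.77 without the 5 libraries listed for low GC slopes (adjusted p = 0.00331). The call was kept without each line. With 552A it was 0.67 ± 0.15, also higher in 6 of 6 lines, but not called (adjusted p = 0.0637); it was called after GC correction (0.62, adjusted p = 0.0157) and by DESeq2 (0.68, adjusted p = 0.00554). With ATRA it was 0.46 and not called (adjusted p = 0.06998), but it was called by DESeq2 (0.47, adjusted p = 0.0260). At day 2 the values were 0.81 ± 0.15 for 552A (adjusted p = 0.00988), 0.50 ± 0.15 for ATRA (adjusted p = 0.0450) and 0.76 ± 0.15 for Combo (adjusted p = 0.00227). The day-2 552A call was lost without the 5 libraries (0.63, adjusted p = 0.103), MOLM13 (0.0514), OCIAML3 (0.0604) or THP1 (0.0731). The day-2 ATRA call was lost after GC correction (0.27, adjusted p = 0.150), without the filter on low counts (0.0599), without the 5 libraries (0.0582), and without HL60 (0.36, adjusted p = 0.160), MOLM13 (0.0527), OCIAML3 (0.182) or THP1 (0.163).

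Within lines, RB1 was called at day 4 in HL60 (Combo 1.33 ± 0.22, adjusted p = 0.000670; ATRA 0.81 ± 0.22, adjusted p = 0.0138), Kasumi1 (Combo 1.07 ± 0.23, adjusted p = 0.0120) and OCIAML3 (Combo 1.17 ± 0.29, adjusted p = 0.0174; ATRA 0.98 ± 0.28, adjusted p = 0.0388). After GC correction these were 0.99, 0.40, 0.75, 0.68 and 0.71, and all 5 stayed called. The HL60 Combo call was kept without any 1 library. The HL60 ATRA call was lost without ATRA replicate 2 (0.52, adjusted p = 0.101) or DMSO replicate 1 (0.0795), and the Kasumi1 call without Combo replicate 1 (0.66, adjusted p = 0.0808) or DMSO replicate 1 (0.124) or 2 (0.0696). In OCIAML3, leaving out any 1 of the 4 libraries ended the Combo call (adjusted p 0.0631 to 0.136) and the ATRA call (0.107 to 0.222). LPAR6 lies within RB1 on the opposite strand and had 87380 counts over all libraries, beside 320147 for RB1. RCBTB2 also overlaps RB1 on the opposite strand and had 87524 counts. The part of these genes in the RB1 counts was not tested.

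BTG1 (ENSG00000133639.4; chromosome 12, 92140278 to 92145897, minus strand) and BTG2 (ENSG00000159388.5; chromosome 1, 203305491 to 203309602, plus strand) are close relatives. BTG2 had the largest log2 fold change of the 10 genes with ATRA across lines at day 4. At day 4 BTG1 was called with 552A in 2 lines, where BTG2 was not called, and with ATRA in both directions. BTG2, BTG1 and CDKN2B are the 3 members that rose most with ATRA in HL60 at day 4, and the 300 bases around their RefSeq starts (250 before and 50 after; GRCh38.p14) are shown 5′ to 3′ on the gene's strand. Capitals mark matches on either strand to AGGTCA (the hexamer bound by retinoic acid receptors) or GGGCGG (the GC box). The windows are chr1:203305269-203305568 (plus strand) for BTG2, chr12:92145797-92146096 (minus strand) for BTG1 and chr9:22009256-22009555 (minus strand) for CDKN2B.
BTG2: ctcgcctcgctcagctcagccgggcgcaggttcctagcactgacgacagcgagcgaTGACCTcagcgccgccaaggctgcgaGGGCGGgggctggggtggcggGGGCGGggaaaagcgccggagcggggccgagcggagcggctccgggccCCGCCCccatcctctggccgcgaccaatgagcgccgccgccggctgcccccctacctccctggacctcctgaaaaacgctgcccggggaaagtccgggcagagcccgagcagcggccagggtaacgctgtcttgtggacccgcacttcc
BTG1: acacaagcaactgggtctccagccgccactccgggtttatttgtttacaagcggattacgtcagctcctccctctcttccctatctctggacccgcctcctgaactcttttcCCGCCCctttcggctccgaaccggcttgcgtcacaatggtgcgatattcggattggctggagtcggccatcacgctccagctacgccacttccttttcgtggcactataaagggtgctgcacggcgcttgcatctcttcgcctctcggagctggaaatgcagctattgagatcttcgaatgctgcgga
CDKN2B: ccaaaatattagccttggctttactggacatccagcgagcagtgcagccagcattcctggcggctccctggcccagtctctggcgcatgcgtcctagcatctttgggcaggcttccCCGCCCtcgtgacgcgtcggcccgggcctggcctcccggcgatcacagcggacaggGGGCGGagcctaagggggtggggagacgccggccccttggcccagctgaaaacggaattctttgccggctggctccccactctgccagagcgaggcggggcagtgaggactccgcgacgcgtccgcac
The BTG2 window holds 1 AGGTCA, read as TGACCT on the printed strand, and 3 GC boxes, while the BTG1 window holds 1 GC box and the CDKN2B window 2. AGGTCA occurs in 13.83% of 35116 RefSeq windows of this length and GGGCGG in 44.95%. GAGGAAGT (the core bound by PU.1, 2.59% of windows), AAATCA (the core bound by GFI1, 13.17%) and CACGTG (the E box, 7.26%), none of which contains another searched motif, are absent from these 3 windows. In all, 9 of the 10 members had a window in the RefSeq table, 12 windows in total. These matches describe the letters in these windows only.

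At day 4 BTG2 rose with ATRA in 5 of 6 lines and with Combo in 5 of 6. In HL60 at day 4 it was at 1082 and 860.2 CPM in ATRA libraries and 799 and 673 CPM in Combo libraries, while 552A libraries had 16.04 and 16.3 CPM, against 23.6 and 23.1 CPM in DMSO libraries. The log2 fold change was 5.28 ± 0.46 for ATRA (adjusted p = 5.93e-06), a 38.8-fold increase, and 4.89 ± 0.45 for Combo (adjusted p = 8.16e-06), and the 552A value of -0.55 was not called. In MV411 it was at 194 and 273 CPM in ATRA libraries and 91.2 and 81.1 CPM in Combo libraries, against 21.3 and 27.5 CPM in DMSO libraries. There the order was ATRA above Combo above DMSO with no overlap, and Combo differed from ATRA by -1.44 ± 0.38 (adjusted p = 0.02001; the call was lost without ATRA replicate 2, at -1.22, adjusted p = 0.128, or Combo replicate 2, at -1.37, adjusted p = 0.123).

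In THP1 BTG2 was at 186 and 181 CPM in Combo libraries and 103 and 107 CPM in ATRA libraries, against 18.3 and 21.05 CPM in DMSO libraries, with log2 fold changes of 3.15 ± 0.39 for Combo (adjusted p = 6.22e-05) and 2.33 ± 0.38 for ATRA (adjusted p = 0.00141). At day 2 its 2 Combo libraries stood far apart in this line, at 164 and 537 CPM. In Kasumi1 only Combo was called: it was at 3.21 and 3.77 CPM in Combo libraries, 1.37 and 1.29 CPM in 552A libraries and 0.408 and 1.10 CPM in ATRA libraries, against 0.551 and 0.644 CPM in DMSO libraries. The Combo log2 fold change there was 2.50 ± 0.38 (adjusted p = 0.00123), and Combo exceeded ATRA by 2.101 ± 0.37 (adjusted p = 0.00439). In MOLM13 it rose with Combo by 1.72 ± 0.27 (adjusted p = 0.000730) and with ATRA by 1.127 ± 0.27 (adjusted p = 0.0202). In OCIAML3 it rose with ATRA by 1.00 ± 0.25 (adjusted p = 0.0187), and Combo (0.51) was not called. The MOLM13 ATRA call was lost without ATRA replicate 2 (0.94, adjusted p = 0.127) or DMSO replicate 1 (0.196) or 2 (0.0848), and the OCIAML3 ATRA call without ATRA replicate 1 (0.79, adjusted p = 0.149) or DMSO replicate 1 (0.125) or 2 (0.109).

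Across the 6 lines at day 4, BTG2 had a log2 fold change of 2.35 ± 0.60 with ATRA (adjusted p = 0.0251) and 2.36 ± 0.59 with Combo (adjusted p = 0.00893), a 5.12-fold increase with Combo, each higher in 6 of 6 lines. The Combo call was kept without each line (1.94 to 2.81), whereas the ATRA call was lost without MOLM13 (2.65, adjusted p = 0.0575), MV411 (2.09, adjusted p = 0.0800) or THP1 (2.33, adjusted p = 0.0883). At day 2 the values were 1.75 ± 0.47 for ATRA (adjusted p = 0.0297) and 2.16 ± 0.49 for Combo (adjusted p = 0.00423), and the ATRA call was lost without HL60 (1.36, adjusted p = 0.0836), MOLM13 (0.0581), MV411 (0.0562), OCIAML3 (0.0860) or THP1 (0.0885). In HL60 the ATRA log2 fold change was 3.71 at day 2, beside 5.28 at day 4.

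BTG1 rose with 552A alone in THP1 and Kasumi1. In THP1 at day 4 it was at 119 and 109 CPM in 552A libraries, 52.4 and 56.0 CPM in ATRA libraries and 149 and 155 CPM in Combo libraries, against 30.5 and 24.5 CPM in DMSO libraries. Each treatment lay apart from every other, with log2 fold changes of 1.98 ± 0.17 for 552A (adjusted p = 2.21e-05), 0.89 ± 0.16 for ATRA (adjusted p = 0.00290) and 2.39 ± 0.17 for Combo (adjusted p = 7.21e-07), and all 3 calls were kept without any 1 library. In Kasumi1 it was at 49.0 and 42.6 CPM in 552A libraries and 78.3 and 52.1 CPM in Combo libraries, against 18.97 and 17.8 CPM in DMSO libraries. The log2 fold changes there were 1.296 ± 0.27 for 552A (adjusted p = 0.0139) and 1.77 ± 0.27 for Combo (adjusted p = 0.00143), the 552A call being lost without 552A replicate 1 (1.22, adjusted p = 0.0970) or DMSO replicate 1 (0.115) or 2 (0.136).

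With ATRA, BTG1 rose in HL60 and fell in MV411. In HL60 at day 4 it was at 273 and 289 CPM in ATRA libraries and 282 and 256 CPM in Combo libraries, against 50.5 and 44.1 CPM in DMSO libraries. In MV411 it was at 18.1 and 15.2 CPM in ATRA libraries and 28.2 and 31.2 CPM in Combo libraries, against 52.9 and 79.6 CPM in DMSO libraries. In both lines treated and vehicle libraries were apart, on opposite sides. The log2 fold changes in HL60 were 2.47 ± 0.24 for ATRA (adjusted p = 1.57e-05) and 2.42 ± 0.24 for Combo (adjusted p = 1.50e-05). In MV411 they were -1.94 ± 0.29 for ATRA (adjusted p = 0.000333) and -1.12 ± 0.28 for Combo (adjusted p = 0.00974; -0.83, adjusted p = 0.0692, without DMSO replicate 2). After GC correction the 4 values were 2.19, 2.18, -1.65 and -1.17, all called, and the test of whether the ATRA effect differed between lines had an adjusted p of 8.41e-10.

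In OCIAML3 BTG1 was called at day 2 with 552A (1.60 ± 0.28, adjusted p = 0.0137; 0.180 and 0.131 without either DMSO library). At day 4 it rose there with Combo by 0.95 ± 0.28 (adjusted p = 0.0387), which was 0.49 after GC correction (adjusted p = 0.0264) and was not called without any 1 of the 4 libraries (adjusted p 0.0910 to 0.228). Across the 6 lines the day-4 value was 0.82 with 552A, 0.15 with ATRA and 0.97 with Combo, none of them called, and the Combo value was called without MV411 (1.47, adjusted p = 0.0232). The day-2 Combo value of 0.80 ± 0.28 was called (adjusted p = 0.0388), but not after GC correction (0.71, adjusted p = 0.0652) or without Kasumi1 (0.0973), MOLM13 (0.0655), OCIAML3 (0.114) or THP1 (0.62, adjusted p = 0.149).

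**Figure D5:**
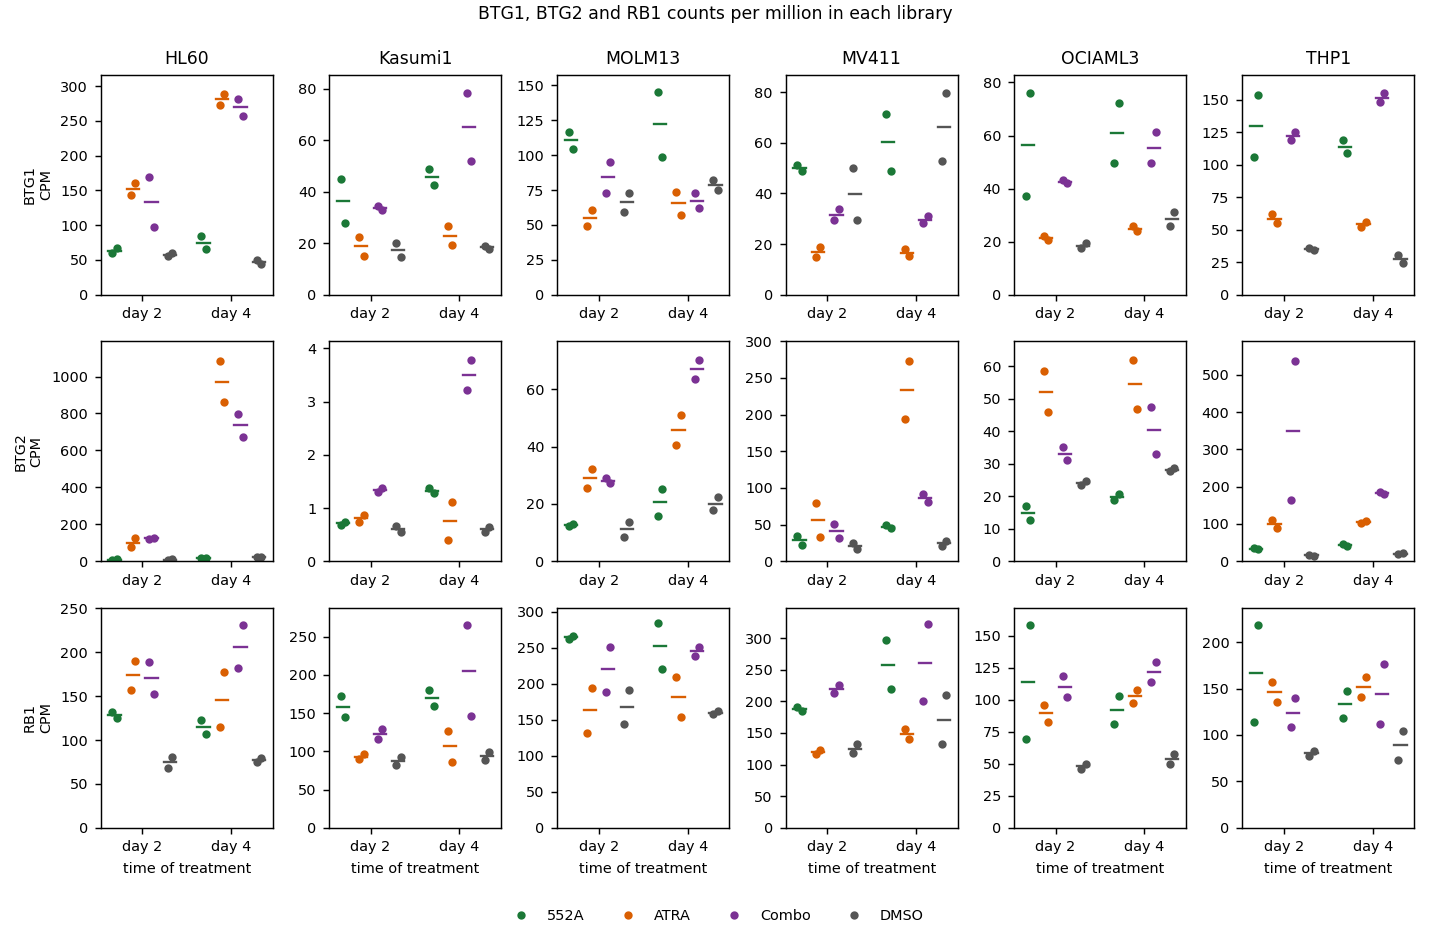
CPM of BTG1, BTG2 and RB1 in each library (points, with the mean of 2 libraries as a bar) by line, day and treatment; the vertical axes differ between panels. At day 4 BTG2 in HL60 lies at 860.2 to 1082 CPM in ATRA libraries and 23.1 to 23.6 CPM in DMSO libraries, and BTG1 in MV411 is lower in ATRA and Combo libraries than in DMSO libraries.

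In the main fits more members were called for Combo against 552A than for Combo against ATRA, as was so over all genes. Across lines this rested on CDKN2B alone, whose call was lost after GC correction. Within lines, GC correction moved the count for Combo against ATRA from 11 to 20. Across lines, Combo against 552A at day 4 was called for CDKN2B (1 member, 7.44% of all genes), with BTG2 at 1.91 ± 0.58 (adjusted p = 0.0502). Combo against ATRA was called for 0 members by edgeR (0.273% of all genes) and 0 by DESeq2; RB1, at 0.47 ± 0.15, had an unadjusted p of 0.00570 (adjusted p = 0.248). Within lines, 15 of 51 tests were called for Combo against 552A (14.7% of all gene and line pairs) and 11 for Combo against ATRA (8.42%). The calls kept without any 1 library were 6 of the 15, CDKN2B, BTG1 and BTG2 in HL60, BTG2 in MOLM13, and CDKN1A and BTG2 in THP1. Of the 11 they were 4, CDKN1A in MV411 (-2.19), BTG2 in Kasumi1 (2.101), and CDKN2D (-2.53) and BTG1 (1.499) in THP1. Whether the effect of Combo differed from the sum of the single-drug effects on the log2 scale was tested across lines. No gene was called (0%; 0 members by edgeR, with 215 genes of 24199 at an unadjusted p below 0.05 and 19 genes called by DESeq2). BTG2, for example, had a difference from the sum of -0.43 ± 0.79.

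The effects at day 4 did not differ from those at day 2 by more than the spread between lines. For 552A, ATRA and Combo alike, 0 genes were called by edgeR (0%, 0% and 0%), with 227, 570 and 480 genes at an unadjusted p below 0.05 and 14, 10 and 11 called by DESeq2. For DMSO at day 4 against day 2, 0 genes were called by edgeR (0%), with 874 at an unadjusted p below 0.05 and 12 called by DESeq2. These tests have 6 lines each, and a member that did not pass them may still have changed with time.

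The partners and targets of these inhibitors were examined as lists, by how many genes passed the test across lines with Combo at day 4, where 3083 of all 24199 genes tested rose and 2560 fell, 23.3% in all. The counts of several lists lie near that share. Of 8 G1 cyclins and kinases, 0 rose and 2 fell: CDK4 (-0.96, adjusted p = 0.00102) and CDK6 (-0.92, adjusted p = 0.0121), the kinases bound by INK4 proteins, while cyclin D1 (CCND1) was at 0.93 (adjusted p = 0.0966). CDK6 also fell with ATRA (-0.91, adjusted p = 0.0320). Of 10 cyclins and kinases of S phase to mitosis 4 fell, among them PLK1 (-1.10) and AURKB (-0.86), both mitotic kinases, and of 13 genes of DNA replication and proliferation 4 fell, among them CDT1 (-2.19), which licenses replication origins, and MCM2 (-1.22), a helicase subunit. Of 12 RB family and E2F genes 2 fell, TFDP1 (-0.55) and E2F4 (-0.44). The list medians were -0.39, -0.58, -0.48 and -0.19, beside 0.04 over all genes.

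Within lines, most Combo calls at day 4 in the lists of DNA replication and of S phase to mitosis were in THP1. With Combo at day 4 all 13 genes of DNA replication and proliferation and all 10 cyclins and kinases of S phase to mitosis fell in THP1, with medians of -3.03 and -2.64, where 3352 of all 19916 genes tested in that line fell and 35.6% were called in either direction. In the other lines 0 to 2 of the 13 and 0 to 5 of the 10 fell, and of the 13, 3 rose in HL60, 1 in MOLM13 and 1 in MV411. Under ATRA at day 4, 8 of the 13 fell in HL60, 3 in THP1 and 2 in OCIAML3, while 4 rose in MOLM13 and 1 in HL60. Of the 10, 5 fell in OCIAML3 and 3 in HL60, and 2 rose in MOLM13. ATRA called 30.8% of all genes in HL60, 14.5% in OCIAML3, 14.2% in THP1 and 8.41% in MOLM13. Among the members in THP1, CDKN1A, BTG1 and BTG2 rose with Combo at day 4 and CDKN2D fell. CDKN2C was also called lower there, but not after GC correction (-0.22, edgeR adjusted p = 0.344). A link between the members and these lists was not tested. In Kasumi1, where CDKN1B, BTG1, BTG2 and RB1 rose with Combo, 0 genes of either list passed the test by edgeR, where 10.3% of all genes tested in that line were called and 4448 of 18001 had an unadjusted p below 0.05.

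Of 18 p53 target genes, CDKN1A apart, 4 rose and 1 fell with Combo across lines at day 4, where 23.3% of all genes tested were called. The list was led by ZMAT3 (1.34, adjusted p = 0.000561), TP53INP1 (1.92) and RRM2B (1.01), and its median was -0.01. CDKN1A was at -0.37 across lines and not called. The same share of all genes applies to the lists that follow. Of 6 genes of p27 turnover and FOXO factors, CUL1 (-0.73) and CKS1B (-0.81), subunits of the ligase that degrades p27, fell and FOXO1 (1.82) rose. Of 11 CCR4-NOT and PRMT1 partners of the BTG proteins 3 rose and 1 fell, among them CNOT8 (0.61), a deadenylase subunit, and PRMT1 (-0.70), which also fell with ATRA (-0.62, adjusted p = 0.0360). Of 8 Polycomb genes, whose complexes silence the CDKN2A region in many cells, EED (0.49) rose and CBX8 (-0.45) fell. The chromosome 9 neighbours MTAP and CDKN2B-AS1 were not called across lines.

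Over the 48 group means, with each line's own mean removed, some members varied together. The correlations share lines, libraries and any depth or GC trend, and are given as a description. CDKN2C and CDKN2D had a Pearson r of 0.783, BTG1 and RB1 of 0.710, CDKN2B and BTG2 of 0.643, and CDKN2A and RB1 of -0.615. Among 8834 or 8835 protein-coding genes, those most like BTG2 were TYROBP (0.917), MKNK1 (0.906) and FMNL3 (0.903). Those most like RB1 included ZFYVE16 (0.9) and VPS50 (0.888), and those most like CDKN2B were CCND1 (0.740), ARL6IP5 (0.739) and UBE2F (0.707).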

How the data were processed

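RNA was prepared as TruSeq stranded total RNA libraries, per the labels' protocols. The authors deposited 1 table of read counts per gene; Trimmomatic 0.36, STAR 2.4.2a, HTSeq 0.6.0 and GRCh38 are named in the submitters' processing notes, and the strand setting is not given in the sources used here. Of 60552 rows, 56994 were matched to GENCODE 29 symbols; the 3558 unmatched rows hold 0.0417% of counts.

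Counts were tested with edgeR 4.0.16 (R 4.3.3; TMM scaling, filterByExpr, quasi-likelihood test, Benjamini-Hochberg adjustment over all genes tested, called at 0.05). Each line was fitted alone (16 libraries, 8 groups, 8 residual degrees of freedom). Across lines, the 2 libraries of a group were summed and the 6 lines served as replicates, with line as a block (24 sums a day). Differences between lines used the 48 day-4 libraries. SE is the log2 fold change divided by the square root of F. CPM uses library totals multiplied by TMM factors, except for the bound of 0.00776 CPM in THP1, which uses the totals alone. GC content and length were corrected with natural splines (5 degrees of freedom). The tests were checked on simulated counts for ATRA against DMSO at day 4. Within HL60, at a set dispersion of 0.02, 68% of genes changed by 1 on the log2 scale were recovered. Across lines, at a set dispersion of 0.1, 93% were recovered. Unchanged genes made up 5.2% of the calls within HL60 and 4.5% across lines. These percentages hold for the set dispersions. Recovery of effects that differ between lines, as many did here, was not tested.

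Alternatives were RLE size factors, no filter, DESeq2 1.42.0, GC correction, a replicate block, and leaving out each library or line. A further alternative left out 5 libraries listed for low GC slopes. Their slopes were -0.984 to -0.494, beside -0.578 to 0.383 in the other 91 libraries, so they are not the 5 lowest. The 10 members and all lists were chosen with earlier results of these data known. All members are described; of each other list, up to 3 genes with the smallest p for Combo across lines at day 4 may be named. For each member called across lines at day 4, the 3 protein-coding genes most correlated with it (line-centred values, mean log2 CPM not under 3) are named, except 1 that is not reported here.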

Additional observations from a re-analysis of the deposited data

Results flagged for a closer look

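For 17 combinations of a member and a treatment, the day-4 effect differed between lines by edgeR's quasi-likelihood F test (adjusted p below 0.05). This test uses the spread between libraries of a group, which may be technical only. With 552A the adjusted p was 0.00275 for CDKN1B, 0.00124 for BTG1 and 0.000366 for BTG2. With ATRA it was 0.0325 for CDKN2C, 3.19e-05 for CDKN1A, 0.0264 for CDKN2D, 8.41e-10 for BTG1, 0.000216 for CDKN2A and 2.49e-11 for BTG2. With Combo it was 0.00354 for CDKN1B, 0.00126 for CDKN2C, 1.48e-07 for CDKN1A, 0.00219 for CDKN2D, 4.57e-10 for BTG1, 0.0201 for CDKN2B, 4.23e-05 for CDKN2A and 2.26e-10 for BTG2. BTG1 with ATRA, at 2.47 in HL60 and -1.94 in MV411, and CDKN1A with Combo, at 2.05 in THP1 and -2.11 in MOLM13, have called effects of both signs. After GC correction the ATRA difference for CDKN2C (adjusted p = 0.134) and the Combo difference for CDKN2A (0.0523) were not called, and differences were called for CDKN1A with 552A (3.31e-05), CDKN1B with ATRA (0.0115) and RB1 with ATRA (0.000607) and Combo (0.0302).

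The log2 fold change of CDKN1B with 552A at day 4 was 0.82 in Kasumi1, far from the values of the other 5 lines by Dixon's criterion for 6 values. Chance alone flags about 1 in 20 such groups.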

How the results depend on the processing

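Of 114 called member values, 53 kept direction and call under every alternative run, 53 lost the call without 1 library, 11 lost it with GC correction, 0 lost it with DESeq2 or the replicate block, and 0 changed sign. Of 400 counts under alternatives, 345 lay within 1.5 times the count reported.

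The replicate numbers do not pair the libraries: the correlation of same-numbered deviations reached -0.881 to -0.501 at its lowest in each line, although its median was 0.019 to 0.541 and 12 to 21 of 28 pairs of groups a line were over 0.1. With a replicate block across lines, which treats libraries rather than lines as replicates, members called were 2 for 552A, 4 for ATRA and 6 for Combo at day 4, 2 for Combo against 552A, 1 for Combo against ATRA, and 3 for 552A and 4 for ATRA at day 2. Within lines the replicate block gave 5 calls for 552A at day 2. With the replicate block and GC correction together there were 17 for 552A at day 4, 13, 23 and 27 for 552A, ATRA and Combo at day 2, and 24 for Combo against ATRA.

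Across lines, DESeq2 called 1 member for 552A and 2 for ATRA at day 4, 2 for Combo against 552A and 2 for 552A at day 2. GC correction gave 1 for 552A at day 4, 0 for Combo against 552A and 1 for ATRA at day 2. RLE factors gave 2 for Combo against 552A, and no filter gave 2 for that comparison and 1 for ATRA at day 2. Without the 5 libraries these were 0 for Combo against 552A, 0 for 552A at day 2 and 1 for ATRA at day 2. Within lines, 552A calls were 8 (DESeq2), 10 (no filter) and 13 (GC correction) at day 4 and 7, 8 and 10 at day 2; GC correction gave 25 for Combo at day 2 and 20 for Combo against ATRA. The cause of these moves was not tested.

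Leaving out 1 line, members called ranged over 0 to 0 for 552A, 0 to 1 for ATRA and 2 to 3 for Combo at day 4, 0 to 1 for Combo against 552A, 0 to 0 for Combo against ATRA, and 0 to 2, 0 to 2 and 3 to 4 for 552A, ATRA and Combo at day 2. Leaving out 1 library within lines, calls ranged over 2 to 5, 15 to 17 and 20 to 25 for 552A, ATRA and Combo at day 4, 2 to 9, 11 to 14 and 13 to 16 at day 2, 12 to 16 for Combo against 552A and 7 to 12 for Combo against ATRA.

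The 15 values that changed sign, none of them called, were day-4 values across lines, 13 of them from leaving out 1 line. Leaving out 1 line, the 552A value of CDKN1B ranged over -0.0492 to 0.187 and that of CDKN2C over -0.11 to 0.00037. The ATRA values ranged over -0.0093 to 0.248 for CDKN2C, -0.14 to 0.422 for CDKN1A and -0.38 to 0.659 for BTG1. The Combo values ranged over -0.17 to 0.186 for CDKN2C, -0.923 to 0.0355 for CDKN1A and -0.24 to 0.275 for CDKN2D. GC correction gave 0.0221 for CDKN2C with 552A, and no filter gave -0.0056 for CDKN2D with Combo.

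Only 2 libraries a group limit the within-line tests, and 6 lines the others. CDKN1C is too low to test outside THP1, and CDKN2A and CDKN2B have no usable counts in MOLM13 and THP1.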

Other observations

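Among lists used as checks, with Combo at day 4 across lines, 5 of 6 drug target and response genes rose, 1 of 5 myeloid identity genes rose and 1 fell, and 0 of 7 tested markers of other lineages and 0 of 13 mitochondrially encoded genes were called. Within lines, of the other-lineage markers tested, 1 rose and 1 fell in HL60 (of 2) and 1 rose in THP1 (of 4). The surface integrin ITGAM rose with 552A, ATRA and Combo, by 2.78, 3.39 and 4.19 on the log2 scale.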
